A study of Mus musculus with 5 samples.

Results

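The EGR and NR4A early response factors are a set of 8 genes, taken by name from the 19938 genes tested in natural helper cells of mouse lung. The set holds the zinc finger genes Egr1, Egr2 and Egr3, the orphan nuclear receptor genes Nr4a1, Nr4a2 and Nr4a3, and Nab1 and Nab2, whose products bind EGR proteins and repress them. All 8 were measured, each by 1 probe set with a single gene symbol. Natural helper cells belong to the group 2 innate lymphoid cells, which lack antigen receptors and are known for making type 2 cytokines. They were sorted by flow cytometry from lungs of naive C57Bl/6 mice, 6 to 8 weeks old, as lineage-negative cells carrying Sca-1, CD127 and CD25 with low or no c-Kit. The PMA and ionomycin group had 2 arrays of cells kept for 3 days in culture (200 microlitres) with PMA at 60 ng/ml, which activates protein kinase C, and ionomycin at 500 ng/ml, which lets calcium into cells. The culture medium held 10% fetal calf serum. The unstimulated group had 3 arrays of cells whose RNA was extracted straight after the sort. Stimulation, culture in serum and time since tissue dissociation cannot be told apart in this design. Nothing in the labels ties the arrays of 1 group to separate mice or cultures. The p-values therefore measure the spread between arrays alone, which may be technical.

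EGR and NR4A genes are immediate early genes. Antigen receptor, growth factor or stress signals switch them on within minutes through serum response factor, CREB and MEF2, with no need for new protein, and their RNA is usually short-lived. EGR proteins bind GC-rich sites through zinc fingers and induce NAB genes, whose products then hold EGR activity in check. In T cells EGR2 and EGR3 are known for restraining activation, and NR4A proteins for roles in tolerance, exhaustion and regulatory T cells. Together PMA and ionomycin set off the same protein kinase C and calcium signals as an antigen receptor.

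The promoters of Egr2, the EGR gene that read higher after stimulation, and of the 3 NR4A genes are shown because they hold the letters that signal-dependent factors are known to bind. Sequences came from RefSeq (GRCm38.p6), where 6 of the 8 members were matched by symbol. Egr1 and Egr3 had no entry among the sequences used, so their promoters were not searched. Each covers the 250 bases before a start of transcription, 5′ to 3′ on the gene's strand. Capitals mark motif letters found on either strand: the half-site TGACG of the cyclic AMP response element (CRE, bound by CREB), the CArG box of serum response factor, the MEF2 site, and the EGR site searched as GCGTGGGCG and GCGGGGGCG. A full CRE (TGACGTCA) and the NR4A monomer site AAAGGTCA were searched too and were in none of these windows. No marked motifs overlap.
Egr2, chr10:67537619-67537868 (+): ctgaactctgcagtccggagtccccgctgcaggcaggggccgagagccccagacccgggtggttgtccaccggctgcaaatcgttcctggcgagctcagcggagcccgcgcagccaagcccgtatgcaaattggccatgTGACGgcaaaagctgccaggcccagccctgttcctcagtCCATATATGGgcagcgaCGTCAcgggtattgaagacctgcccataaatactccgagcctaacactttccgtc
Nr4a1, chr15:101266596-101266845 (+): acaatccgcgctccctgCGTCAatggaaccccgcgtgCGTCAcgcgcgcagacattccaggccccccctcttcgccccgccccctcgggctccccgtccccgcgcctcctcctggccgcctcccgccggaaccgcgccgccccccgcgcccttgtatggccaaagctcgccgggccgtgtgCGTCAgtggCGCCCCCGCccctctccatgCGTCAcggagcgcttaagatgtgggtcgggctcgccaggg
Nr4a2, chr2:57124004-57124253 (-): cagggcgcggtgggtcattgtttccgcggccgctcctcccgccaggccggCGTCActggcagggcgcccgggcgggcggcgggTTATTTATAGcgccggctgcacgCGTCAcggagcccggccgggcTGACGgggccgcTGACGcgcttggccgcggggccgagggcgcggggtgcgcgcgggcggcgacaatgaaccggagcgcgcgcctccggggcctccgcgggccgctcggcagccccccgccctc
Nr4a3, chr4:48045055-48045304 (+): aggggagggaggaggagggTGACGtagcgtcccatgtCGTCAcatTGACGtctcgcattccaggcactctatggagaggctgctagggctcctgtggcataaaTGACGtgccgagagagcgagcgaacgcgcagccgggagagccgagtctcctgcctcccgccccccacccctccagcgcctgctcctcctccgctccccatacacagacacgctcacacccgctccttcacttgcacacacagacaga

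The Egr2 window held 1 CArG box, 72 to 63 bases before the start, and 2 CRE half-sites. Of the 5 Egr2 start sites in RefSeq, 3 lie so close together that their windows share these motifs, and 1 of these 3 windows is shown. From the other starts among these 3, the same CArG box lay 73 to 64 and 133 to 124 bases away. Of the starts outside these 3, 1 window held another CArG box and no CRE half-site, and 1 held none of the motifs. Each of the Nr4a1, Nr4a2 and Nr4a3 windows held 4 CRE half-sites and no CArG box. Nr4a1 also held 1 EGR site, 60 to 52 bases before the start, and Nr4a2 held 1 MEF2 site, 167 to 158 bases before it. The Nab1 window held 3 EGR sites and 1 CRE half-site, and that of Nab2 held none of the motifs. Among 32851 RefSeq windows of this length, 17.8% held a CRE half-site and 0.137% held 4 or more. A CArG box was in 1.47%, a MEF2 site in 2.92%, GCGGGGGCG in 2.57%, GCGTGGGCG in 0.536%, a full CRE in 1.55% and AAAGGTCA in 1.34%. A match is a stretch of letters and not a shown binding site.

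**Figure D1:**
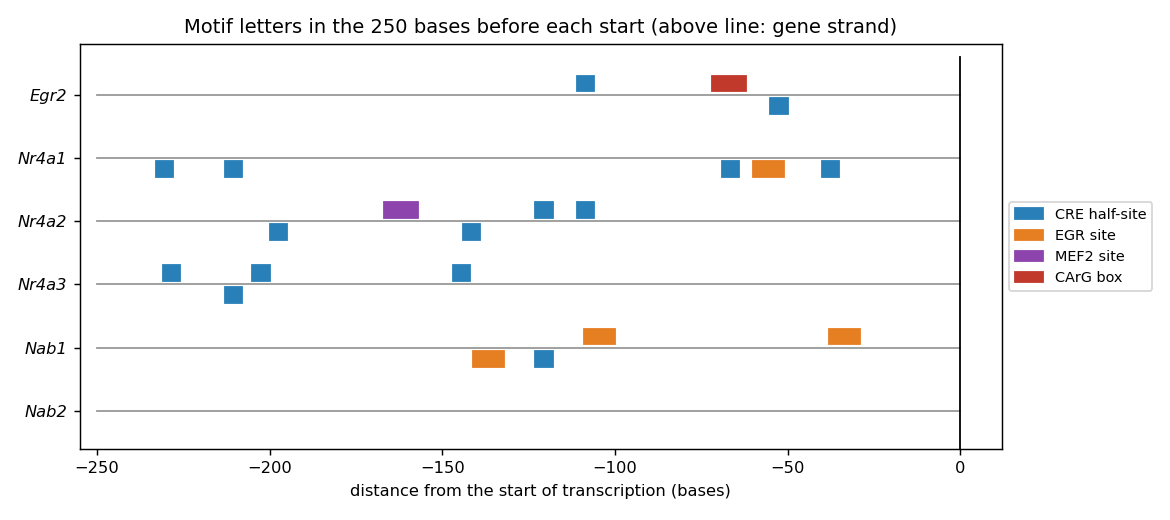
Motif matches in the 250 bases before the start of 6 member genes, by distance from the start in bases; boxes above a line are on the gene's strand and boxes below on the other. The 3 NR4A windows hold 4 CRE half-sites each, and the single CArG box is in the Egr2 window.

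Levels are RMA values, a log2 measure of array signal, so a difference of 1 is a doubling, and levels are compared between arrays and not between genes. The 5 arrays had near-equal medians (5.63 to 5.66). Pearson correlations over probe sets, which are no independent replicates, were 0.989 between the stimulated arrays, 0.980 to 0.988 between unstimulated arrays and 0.956 to 0.969 across groups. All 13 measured natural helper cell markers were above the median of all probe sets on at least 1 array, but so were all 5 endothelial and all 6 epithelial markers, so this does not tell the cell types apart. Of the 13, limma called 4 lower in stimulated cells and none higher, beside 0.963% and 0.737% of all genes. The 4 were the receptor genes Il7r (-0.77, adjusted p = 0.0229) and Il17rb (-3.23, adjusted p = 0.0492) and the transcription factor genes Id2 (-0.78, adjusted p = 0.0352) and Rora (-0.81, adjusted p = 0.0456). Called or not, 4 of the 13 lay higher without overlap of the groups and 7 lower, beside 18.6% and 14.0% of all genes. Of those higher, the cytokine gene Il13 differed by 2.41 (adjusted p = 0.0942). The labels give no sex, and Xist, which silences one X chromosome in females, read 4.16 and 4.11 on the stimulated arrays, against 9.09, 10.20 and 9.66 on the unstimulated ones, so a difference in sex between the groups cannot be told apart from the others.

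The 3 NR4A genes read lower in cells cultured with PMA and ionomycin than in fresh cells, and no array of 1 group reached the range of the other, but none passed the test over all genes. Nr4a1, which codes for Nur77, a factor used as a reporter of antigen receptor signals in T cells, read 7.38 and 8.17 on the stimulated arrays, against 10.12, 10.41 and 9.75 on the unstimulated arrays. Both stimulated values lay at least 1.58 under the lowest unstimulated one. The difference was -2.32 ± 0.35 (SE, log2, n = 2 and 3 arrays), or 4.99-fold lower, the 74th from the lowest among all genes, with an adjusted p of 0.0769 (limma, Benjamini-Hochberg). Nr4a2, which codes for Nurr1, best known from dopamine neurons, read 8.30 and 9.02, against 10.70, 10.70 and 10.47 in unstimulated cells. Its unstimulated arrays lay within 0.23 of each other while its stimulated arrays were 0.72 apart. The difference was -1.96 ± 0.26 (SE), or 3.89-fold lower (adjusted p = 0.0666). Nr4a3, which codes for Nor1, read 8.20 and 8.52 after PMA and ionomycin and 9.42, 9.73 and 9.19 in unstimulated cells. Its groups were 0.68 apart at the nearest, against 1.58 for Nr4a1, and its difference of -1.09 ± 0.21 (SE, 2.13-fold lower) had an adjusted p of 0.106. All 3 were lower on stimulated array 1 than on stimulated array 2, as were 6 of the 8 members and 40.3% of all genes. Without stimulated array 2 the difference of Nr4a2 was -2.32, and without stimulated array 1 it was -1.60. In each such fit the lone stimulated array is taken to vary as the unstimulated ones do.

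None of the 3 EGR genes passed the test. Egr2 was the 1 member of the EGR and NR4A families with the higher level after PMA and ionomycin. It read 10.31 on both stimulated arrays, against 9.35, 9.18 and 8.68 on the unstimulated arrays, so every stimulated value was at least 0.96 above every unstimulated one. The difference was 1.24 ± 0.24 (SE, n = 2 and 3), or 2.36-fold higher, with a 95% interval of 0.56 to 1.92 and an adjusted p of 0.104. Egr1 read 6.18 and 6.12 on the stimulated arrays and 7.72, 7.27 and 7.04 on the unstimulated arrays, with no overlap. Its stimulated values lay within 0.06 of each other and between the median and the upper quartile of all values (5.64 and 7.07). The difference was -1.19 ± 0.23 (SE), or 2.28-fold lower (95% interval -1.87 to -0.51, adjusted p = 0.109). Egr3, which shares the anergy-linked role of Egr2 in T cells, read 6.37 and 6.54 after PMA and ionomycin, against 6.73, 6.61 and 6.54 in unstimulated cells. These groups met at 6.54, a value shared to 5 decimals by a stimulated and an unstimulated array. The difference of -0.17 ± 0.09 (SE) had a 95% interval of -0.42 to 0.08 (adjusted p = 0.426). The intervals of Egr1 and Egr2 do not overlap, while a difference between their changes was not tested.

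Neither corepressor gene passed the test. Nab1 read 7.81 and 7.76 on the stimulated arrays, against 8.25, 8.55 and 8.00 on the unstimulated arrays, so the groups did not overlap, with a gap of 0.19. The difference was -0.48 ± 0.19 (SE, 95% interval -1.02 to 0.06, adjusted p = 0.301). Nab2, a gene that EGR proteins are known to induce, read 7.37 and 7.53 after PMA and ionomycin and 7.14, 7.35 and 6.87 in unstimulated cells. Its groups were separated by only 0.02. The difference of 0.33 ± 0.17 (SE) had a 95% interval of -0.16 to 0.82 (adjusted p = 0.428). After centring on reference genes, which moved the median of all genes by -0.46, the difference of Nab2 was -0.13, the only change of sign among the 8 members under the alternatives tried.

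**Figure D2:**
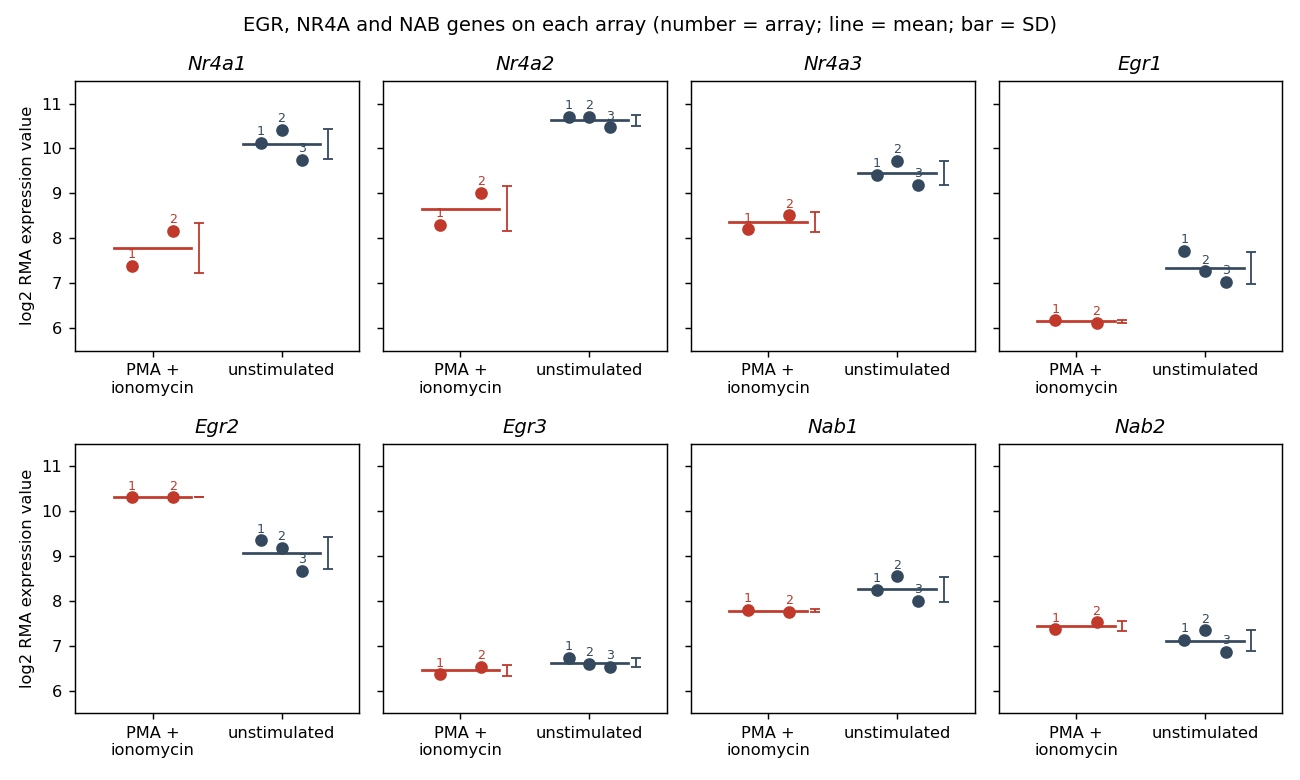
Log2 RMA expression value of each member on every array, with PMA and ionomycin (2 arrays, red) left of unstimulated (3 arrays, dark); numbers are array numbers, lines are means and bars are SD. The stimulated points of Nr4a1, Nr4a2, Nr4a3 and Egr1 lie under all unstimulated points, those of Egr2 lie above them, and those of Egr3 share a value with them.

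None of the 8 members passed the test (limma, adjusted p under 0.05), which called 1.70% of all genes. At an unadjusted p under 0.05 there were 5 members, Egr2 higher and Nr4a1, Nr4a2, Nr4a3 and Egr1 lower, beside 19.9% of all genes (11.3% higher and 8.58% lower). The same 5 differed by 1 or more on the log2 scale, as did 4.96% of all genes (2.23% higher and 2.73% lower). The groups did not overlap for 7 of the 8 members, 2 higher and 5 lower, beside 32.5% of all genes (18.6% higher and 14.0% lower). An exact permutation test of 2 against 3 arrays cannot give a p under 0.1. The call depended on the genes and the scaling used. Among the 10356 genes whose mean was above the median, limma called Egr2 higher (adjusted p = 0.0425) and Nr4a1, Nr4a2, Nr4a3 and Egr1 lower (adjusted p 0.0248 to 0.0452), in a test that called 14.9% of those genes (7.96% higher and 6.91% lower). A second quantile normalization gave 1 member higher and 3 lower beside 7.79% of all genes (4.14% higher and 3.66% lower), and median centring gave 2 lower, Nr4a1 and Nr4a2, beside 5.95% (3.31% higher and 2.64% lower). With genes above the lower quartile Nr4a2 was called lower, beside 4.21% of genes (2.00% higher and 2.21% lower), and without stimulated array 2 it was called beside 3.88% (1.81% higher and 2.07% lower). Centring on reference genes called 1 member higher and 6 lower, beside 54.7% of all genes (2.82% higher and 51.9% lower). Leaving out any 1 array kept the difference of Nr4a1 between -2.71 and -1.93, that of Nr4a3 between -1.25 and -0.93 and that of Egr2 between 1.04 and 1.38, although groups that do not overlap fix the sign in advance.

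**Figure D3:**
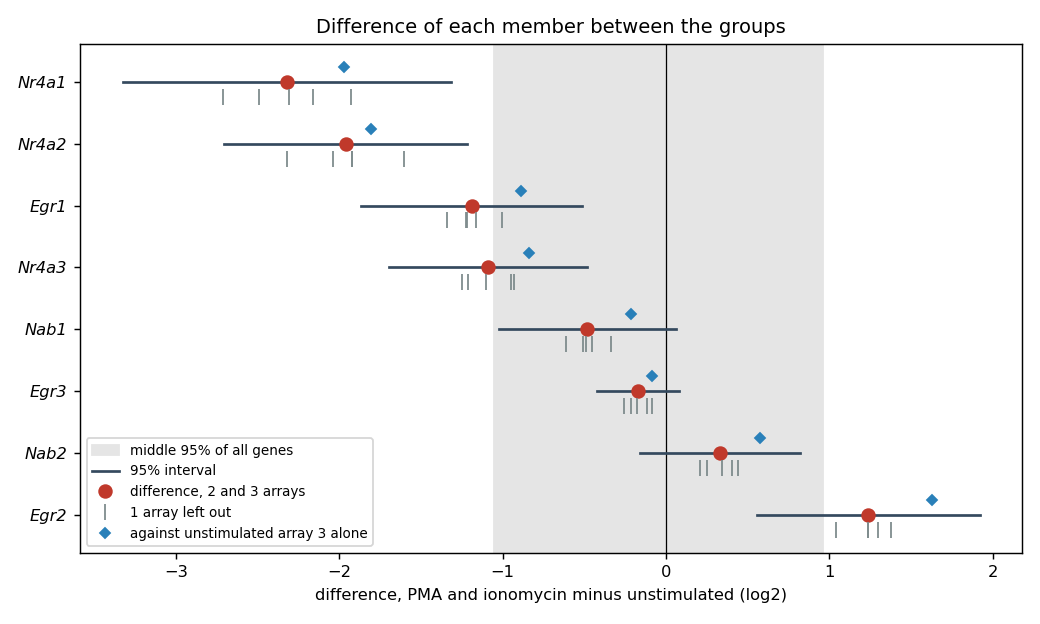
Difference of each member, stimulated minus unstimulated (log2) (red point), with its 95% interval (line), the values with 1 array left out (ticks) and the value against unstimulated array 3 alone (diamond). The grey band holds the middle 95% of all 19938 genes, from -1.06 to 0.96; Nr4a1, Nr4a2, Egr1 and Nr4a3 lie to its left and Egr2 to its right.

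Unstimulated array 3 had the lowest or joint lowest unstimulated value for all 8 members, as it had for 47.6% of all genes. It also differed in markers of other lung cells. The summed linear signal of 5 endothelial markers was 312.5 and 381 on the stimulated arrays, against 1815, 1297 and 468 on unstimulated arrays 1, 2 and 3. That of 6 epithelial markers was 349 and 452.5, against 2868, 1798 and 656, and that of 6 neutrophil markers was 170 and 179, against 1109, 516.5 and 281. Single strong genes weigh most in such sums: the epithelial gene Scgb1a1 read 6.95 and 7.97, against 11.17, 10.58 and 8.67. The neutrophil gene S100a9 read 4.97 and 5.09, against 9.49, 8.15 and 6.91, while Mpo read 5.40 on all arrays. The median difference was -0.33 over the epithelial and -0.02 over the neutrophil markers. The 9 macrophage and monocyte markers summed to 466 and 351, against 1019, 725 and 575, and the 8 T cell markers to 1542 and 1205, against 2155, 2786 and 1696. The sums of B cell, NK cell, dendritic cell, mast cell and fibroblast markers ran from 101 to 310 on the stimulated arrays, against 172 to 546 on the unstimulated ones. No measured marker of these 10 other cell types passed the test, which called 1.70% of all genes. Of the natural helper cell markers 4 fell. Called or not, some lay lower without overlap of the groups: 4 endothelial, 4 epithelial, 6 macrophage and monocyte, 2 T cell and 2 neutrophil markers. Of these lists only the neutrophil one held a marker higher without overlap, 1 of 6. Among all genes 14.0% lay lower and 18.6% higher. Egr1, Egr2 and Egr3 followed the order of the endothelial, epithelial, neutrophil and macrophage sums over the unstimulated arrays. In this order array 1 is highest and array 3 lowest. Nr4a2 had array 3 lowest, but its unstimulated arrays 1 and 2 nearly tied (10.701 and 10.697). Egr2 and these sums differed in opposite directions between the groups. Nr4a1, Nr4a3, Nab1 and Nab2 followed the order of the T cell sum, with array 2 highest and array 3 lowest. The natural helper cell sum had this order too (18440, 19450 and 17520 on unstimulated arrays 1, 2 and 3), as had the B cell and dendritic cell sums. Few orders are possible with 3 arrays, and these matches of order were not tested. The part of other cell types in the members' values was not tested, and fewer cells of a type and less RNA per cell cannot be told apart here. Against unstimulated array 3 alone, the differences were -1.97 for Nr4a1, -1.81 for Nr4a2, -0.84 for Nr4a3, -0.88 for Egr1 and 1.63 for Egr2. With that lone array taken to vary as the stimulated pair does, no gene was called.

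Neither of the closest relatives of the EGR genes on the array passed the test. Egr4, the remaining EGR gene, read 5.99 and 6.01 in stimulated cells and 6.11, 5.93 and 5.99 in unstimulated cells (-0.01 ± 0.06 SE, adjusted p = 0.992). Wt1, whose zinc fingers are related to those of the EGR proteins, read 5.28 on both stimulated arrays, against 5.28, 5.20 and 5.35 on the unstimulated arrays. All values of both lay under the upper quartile of all values.

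Of 30 other immediate early genes measured, 13 fell in cells cultured with PMA and ionomycin and none rose, beside 0.963% and 0.737% of all genes, and the median difference was -1.54, beside 0.00 over all genes. The list was chosen with earlier results of these data known, so these counts are no independent evidence. The AP-1 subunit gene Fosb read 6.43 and 6.53 on the stimulated arrays, against 11.30, 11.19 and 11.33 on the unstimulated arrays, and fell 27.8-fold (-4.80 ± 0.06 SE, adjusted p = 0.0105). It was followed by Dusp1, a MAP kinase phosphatase gene (10.3-fold), the AP-1 genes Fos (7.74-fold) and Jun (7.42-fold), and Ppp1r15a, a stress-induced phosphatase subunit gene (7.03-fold), with adjusted p from 0.0229 to 0.0440. In 25 of the 30 the stimulated values lay under every unstimulated one, beside 14.0% of all genes. In 1, the AP-1 gene Fosl1, they lay above every one: it read 6.83 and 6.98, against 6.49, 6.52 and 6.52 in unstimulated cells, and did not pass the test (0.39 ± 0.05 SE, adjusted p = 0.0673, but -0.071 after centring on reference genes). Fosl1 was named after its values were seen. The calls were sensitive to single arrays: with 1 stimulated array, taken to vary as the unstimulated ones do, 5 genes of the list were called lower and Fosl1 was called higher, and calls of lower genes numbered 2 without unstimulated array 3 and 0 without unstimulated array 1 or 2. The fall of Fosb was wider than the difference of any member. Egr2, at 1.24, read higher but was not called. The 13 were picked as lower, so they are no measure for it. Over all 30 the highest difference was 0.39, that of Fosl1.

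Measured too were 23 genes that relay signals to EGR and NR4A promoters (serum response factor, its cofactors, and CREB, MEF2 and NFAT factors with theirs). Of these, Mrtfb and Crtc2 fell and none rose, beside 0.963% and 0.737% of all genes, and the median difference was -0.18. At an unadjusted p under 0.05 there were 3 higher and 8 lower, beside 11.3% and 8.58% of all genes. Mrtfb, a cofactor of serum response factor, read 7.07 and 7.03 in stimulated cells, against 7.57, 7.63 and 7.57 in unstimulated cells (-0.54 ± 0.03 SE, adjusted p = 0.0277). Its probe sets disagreed: the difference was -0.28 for their mean (adjusted p = 0.0870) and -0.11 for the one with the lowest mean (adjusted p = 0.679). Crtc2, a coactivator of CREB, differed by -0.37 ± 0.03 (SE, adjusted p = 0.0442). Neither was called when any 1 array was left out (adjusted p from 0.0502 to 0.128). None of the 13 subunits of NuRD and NAB partner complexes, through which NAB proteins repress, was called, and their median was 0.03. At an unadjusted p under 0.05, 2 were higher and 1 lower, beside 11.3% and 8.58% of all genes. None of the 10 measured NR4A partners and nuclear receptor coregulators was called either, and their median was -0.11. At an unadjusted p under 0.05, 4 of these were lower, beside 8.58% of all genes.

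Of 15 measured genes described as targets of EGR2 or EGR3 in T cells, 2 rose and none fell, beside 0.737% and 0.963% of all genes. At an unadjusted p under 0.05 there were 4 higher and 3 lower, beside 11.3% and 8.58% of all genes, and the median difference was 0.17. Lag3, an inhibitory receptor gene, read 9.02 and 8.49 on the stimulated arrays, against 6.14, 5.82 and 5.89 on the unstimulated arrays (2.81 ± 0.21 SE, adjusted p = 0.0378). Tnfrsf9, which codes for the costimulatory receptor 4-1BB, read 10.84 and 10.82, against 7.83, 8.00 and 8.02 in unstimulated cells (2.88 ± 0.07 SE, adjusted p = 0.0166). The stimulated values of both stood well clear of the unstimulated ones. Egr2, which was not called, also had every stimulated value above every unstimulated one, as had 18.6% of all genes. A link of Lag3 and Tnfrsf9 to Egr2 was not tested. Without unstimulated array 2 neither was called (adjusted p = 0.137 for Lag3 and 0.0903 for Tnfrsf9), and Lag3 was not called either without stimulated array 1 (0.0565), unstimulated array 1 (0.104) or unstimulated array 3 (0.0822). Differences that did not pass were 1.80 ± 0.26 for the semaphorin gene Sema7a (adjusted p = 0.0743), 1.57 ± 0.32 for the death ligand gene Fasl (0.112) and 0.71 ± 0.32 for the adhesion receptor gene Crtam (0.379). Of the ubiquitin ligase genes linked to anergy, Cblb differed by 0.58 ± 0.21, Itch by 0.10 ± 0.10 and Rnf128 by -1.11 ± 0.21 (adjusted p = 0.266, 0.640 and 0.10). The diacylglycerol kinase genes Dgka and Dgkz differed by -0.44 and 0.07, the cell cycle inhibitor gene Cdkn1b by -0.57, and Nrgn, Nrn1, Socs1 and Socs3 by 0.17, 0.20, 0.17 and -0.03. Centring on reference genes turned the sign of Itch, Dgkz, Nrgn, Nrn1 and Socs1.

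Among 15 genes described as targets of NR4A factors in T cells or macrophages, 3 rose and none fell, beside 0.737% and 0.963% of all genes. The list as a whole was mixed, with a median of -0.02. At an unadjusted p under 0.05 there were 4 higher and 4 lower, beside 11.3% and 8.58% of all genes. Groups did not overlap for 6 higher and 6 lower, beside 18.6% and 14.0%. The 3 called were the inhibitory receptor genes Havcr2 (3.52 ± 0.08 SE, adjusted p = 0.0158) and Tigit (3.24 ± 0.27, adjusted p = 0.0430) and the transcription factor gene Irf4 (3.25 ± 0.17, adjusted p = 0.0271). These 3 were higher in the cells in which Nr4a1, Nr4a2 and Nr4a3 read lower. Irf4 was not called with any 1 array left out (adjusted p from 0.0536 to 0.104), Tigit was called only without unstimulated array 3, and Havcr2 lost its call only without unstimulated array 2 (0.0881). Both target lists were drawn up from work in other cells and with results of these arrays known, so their directions are no independent evidence.

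**Figure D4:**
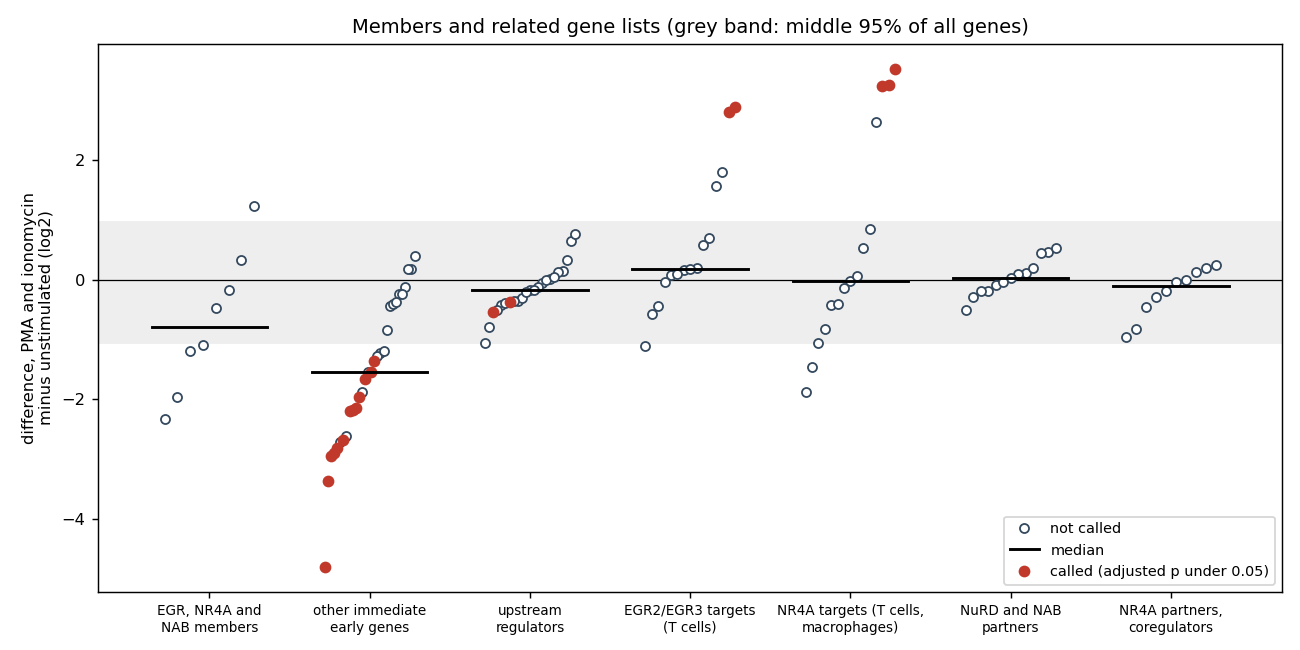
Difference of each gene, stimulated minus unstimulated (log2), in the 8 members and 6 related gene lists; filled points were called by limma, open points were not, and black lines are medians. The grey band is the middle 95% of all genes. Of the other immediate early genes 13 were called lower, beside 0.963% of all genes. Of the target lists 2 and 3 genes were called higher, beside 0.737% of all genes.

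Likeness between genes was measured as the root mean square difference between their 5 array values after each was centred on its mean, where 0 is an identical pattern. The genes nearest to Nr4a1 were Nfkbid, a nuclear IkB gene (0.14), Lmo4, a LIM-only factor gene (0.17), and Sik1, the gene of a CREB pathway kinase (0.17). Nr4a2 was the 7th nearest gene to Nr4a1 (0.23), and Nr4a1 the 24th nearest to Nr4a2. Nr4a3 lay farther off, as the 301st nearest to Nr4a1 and the 241st nearest to Nr4a2. To Nr4a2 the nearest were Btg2, an antiproliferative gene (0.07), Gm4759 (0.13) and Rgs2, the gene of a G protein regulator (0.14). Sik1, Btg2 and Rgs2 are themselves known to be induced early by signals. Plxnc1, a semaphorin receptor gene (0.04), Ypel2 (0.07) and Prkd3, a protein kinase D gene (0.07), were nearest to Nr4a3. Nearest to Egr1 were Snhg15 (0.03), the protocadherin gene Pcdh17 (0.09) and Hey1, the gene of a Notch-induced repressor (0.09). To Egr2 the nearest were Sv2c, a synaptic vesicle protein gene (0.12), Raph1, the gene of an actin regulator (0.14), and Dusp16, a gene for a phosphatase of MAP kinases (0.15). With 5 arrays these values describe the arrays at hand, and all 5 are shared by every gene compared.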

How the data were processed

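Expression was measured on 1-colour Affymetrix arrays of biotin-labelled cRNA. The authors deposited RMA output on a log2 scale, per the submitters' processing notes. Its version and which arrays were normalized together are not given in the sources used here. No detection calls were used, and precision is limited by there being 5 arrays.

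Of 35556 probe sets, 21789 had 1 gene symbol in the platform annotation, 1621 several and 12146 none in the table used here. For each of 19938 genes, the probe set of highest mean stood for the gene. Values repeated between arrays, to 5 decimals, in 62.0% of genes.

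Groups came from the titles. The test was limma (version 3.58.1, R 4.3.3) with moderated variances and no filter on low values. P-values were adjusted by Benjamini-Hochberg over all genes, and a gene was called at an adjusted p under 0.05. Differences are PMA and ionomycin minus unstimulated. Scripts were tested on simulated data. Plots used matplotlib 3.10.9 in Python 3.11.15.

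The members, the 7 related gene lists and the marker lists were chosen with earlier results of these data known. Named were all members, all Egr relatives and EGR2 or EGR3 targets, up to 5 called genes with the widest difference from each other list, and, for each member with a difference of 1 or more, the 3 genes most like it. List symbols were matched through older names. There were 19 alternatives: variance models, array weights, filters, probe set summaries, scalings, thresholds, a replicate block, and left-out arrays.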

Additional observations from a re-analysis of the deposited data

How the results depend on the processing

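Against 147 genes higher and 192 lower, no member called in either direction, and 5 list genes higher and 15 lower, the counts were as follows, over all genes, then for members, then for the lists. Robust variances gave 45 and 66, no member, and 3 and 6. Genes above the lower quartile gave 317 and 351, with 1 member lower (Nr4a2). Genes above the median gave 824 and 716, 1 and 4 members, and 13 and 27. Median centring gave 660 and 526, 2 members lower, and 24 list genes lower. A second quantile normalization gave 825 and 729, 1 and 3 members, and 10 and 29. Centring on reference genes, which moved the median of all genes by -0.46, gave 562 and 10338, 1 and 6 members, and 8 and 69. It turned the sign of Nab2 (-0.13), Wt1 (-0.46), Fosl1 (-0.071), Dgkz (-0.39), Itch (-0.37), Nrgn (-0.29), Nrn1 (-0.26) and Socs1 (-0.29). An adjusted p under 0.01 gave 0 throughout, and adding a difference of 1 gave 63 and 121. Against unstimulated array 3 alone all counts were 0. Signs also turned there for Egr4 (0.012), Wt1 (-0.069), Itch (-0.020) and Socs3 (0.42), and for Egr4 under array weights (0.00089), median centring (0.012) and a second quantile normalization (0.0058) and for Socs3 with the lowest probe set (0.021). With 1 array left out, counts ran from 0 to 361 higher and 0 to 413 lower over all genes, stayed at 0 higher and 0 to 1 lower for members, and ran from 0 to 4 and 0 to 6 for the lists. Near-zero differences then ran from -0.048 to 0.040 for Egr4, -0.26 to 0.15 for Socs3 and -0.035 to 0.043 for Wt1. The replicate number as a block gave 0 calls everywhere, with a difference of -2.49 for Nr4a1 and 1.04 for Egr2. Same-numbered arrays did not deviate together (r = -0.14 and -0.06 over genes), so the number was not taken as a pairing. The cause of these changes was not tested. An intensity trend, array weights and other probe set summaries called no member.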
